A study of Mus musculus with 800 samples.

Results

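The 9 genes described here belong to the fibroblast growth factor (FGF) pathway and were followed in single cells of the embryonic mouse retina. They are the ligand gene Fgf15, its intracellular relative Fgf12, the receptor genes Fgfr1, Fgfr2 and Fgfr3, and the feedback and target genes Spry1, Spry2, Etv5 and Dusp6. These 9 were chosen by name from the 49492 gene symbols of the count table, and each has a row in it. They were read in cells with at most 20% of their counts in mitochondrially encoded genes, which left out 73 of 400 Tomato+ and 38 of 400 Tomato- cells.

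The cells came from pooled retinas of C57BL/6 Sert-Cre embryos at E15.5, which were dissociated and sorted by flow cytometry. Sert-Cre expresses Cre recombinase from Slc6a4, the serotonin transporter gene. In the developing retina this gene is known from retinal ganglion cells (RGCs), the neurons whose axons form the optic nerve. The red fluorescent protein Tomato is the usual Cre reporter, which marks cells in which the driver is or was active. Neither the reporter allele nor the gate is described in the labels, so Tomato- cells are here the retinal cells that carry that label. With 0 rows for Cre or Tomato in the table, the label could not be checked on its own transcript.

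The labels tie no cell to an animal. Each group is therefore 1 pool, and the 2 pools were compared by description, without a test. A number in the cell titles splits each group into 10 sets of cells, 1 to 10 in Tomato+ and 11 to 20 in Tomato-. What this number stands for is not stated, and after filtering a set held 24 to 38 Tomato+ or 35 to 39 Tomato- cells. Values by title number serve as a measure of spread, which mixes technical differences with the sampling of cells. Because no title number occurs in both groups, the label and differences between title numbers cannot be told apart.

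Kept Tomato+ cells had 9653 to 644293 counts each (median 271789), and kept Tomato- cells 16826 to 689788 (median 243409.5). Levels are in CPM (the usual depth-scaled unit), the counts of a gene over all counts summed in the cells named. In such sums, fewer cells of a type and less RNA per cell cannot be told apart. Brackets hold 95% intervals, exact Poisson for CPM and exact Clopper-Pearson for shares of cells, and they cover counting error only. A gene is called detected in a cell at 5 or more counts. Where a number is 0, the limit given with it is what 3 counts or 3 cells would make. Log2 ratios have 10 CPM added to both sides, and the SD beside them is that of log2(CPM + 10) between title numbers.

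FGFs are secreted proteins that bind receptor tyrosine kinases together with heparan sulphate chains and switch on the RAS and ERK kinase cascade inside the cell. ERK signalling induces ETS transcription factors such as Etv5, and it also induces its own inhibitors, the Sprouty proteins and the phosphatase Dusp6. Fgf15 is the mouse counterpart of human FGF19 and is known as a gene of retinal progenitors, the dividing cells that give rise to all retinal neurons.

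Fgf15 was 43.9-fold higher in Tomato- than in Tomato+ cells. Over title numbers, the lowest, median and highest levels were 0.780, 1.77 and 113.8 CPM in Tomato+ cells. In Tomato- cells they were 409.8, 793 and 1023 CPM. The 2 ranges did not overlap, and 9 of the Tomato+ title numbers lay at or below 13.2 CPM. Summed over cells, Tomato+ had 16.4 CPM [15.6 to 17.3] of Fgf15, while Tomato- had 720.4 CPM [714.9 to 725.8]. The log2 ratio, Tomato+ over Tomato-, was -4.79 (SD 0.85). Fgf15 was detected in 9 Tomato+ cells, a share of 2.75% [1.27 to 5.16]. In Tomato- cells the share was 54.1% [48.9 to 59.4].

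Most of the Fgf15 in Tomato+ cells came from a pair of cells. With 705 and 471 counts, both in title number 5, they held 83.1% of the Tomato+ counts, and both fell in the progenitor-like class described below. Without the 3 progenitor-like Tomato+ cells, Fgf15 was at 2.80 CPM [2.46 to 3.18] and the log2 ratio was -5.83.

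Fgf12 encodes an FGF homologous factor, a protein that stays inside the cell, binds voltage-gated sodium channels and does not act through FGF receptors in the usual way. It was 3.09-fold higher in Tomato+ cells, the opposite order to Fgf15. The lowest, median and highest title numbers were at 22.1, 124.2 and 151.7 CPM in Tomato+ cells. In Tomato- cells they were at 3.71, 39.5 and 68.2 CPM. The ranges overlapped through 1 Tomato+ title number, number 8, while the other Tomato+ title numbers lay above all Tomato- ones. Tomato+ cells together had 111.4 CPM [109.2 to 113.7] and Tomato- cells 36.1 CPM [34.9 to 37.3], a log2 ratio of 1.40 (SD 0.82). Among Tomato+ cells 48.6% [43.1 to 54.2] had Fgf12 detected, and among Tomato- cells 11.05% [8.01 to 14.7].

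Among the receptors, Fgfr1 was the one detected in more than a few cells. Its lowest, median and highest title numbers were 5.61, 17.5 and 33.7 CPM in Tomato+ and 9.36, 28.6 and 68.6 CPM in Tomato- cells. The ranges overlapped widely. The summed levels were 17.9 CPM [17.1 to 18.9] and 30.3 CPM [29.2 to 31.5], and the log2 ratio of -0.53 was within the SD of 0.59. The share of cells was nearly the same, at 18.04% [14.03 to 22.6] and 18.5% [14.6 to 22.9].

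Fgfr2 and Fgfr3 were close to the limit of these libraries. Fgfr2 had 1 count over all Tomato+ cells and a level of 2.97 CPM [2.63 to 3.34] in Tomato- cells. It was detected in 6 Tomato- cells and 0 Tomato+ cells, which allows a Tomato+ share of up to 0.917% by the limit of 3 cells. Fgfr3 had 25 and 70 counts and was detected in 2 Tomato+ and 3 Tomato- cells. For both genes single cells decided the level, since 1 cell held 35.97% of the Tomato- Fgfr2 counts and 45.7% of the Tomato- Fgfr3 counts.

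Etv5, an ETS transcription factor of the PEA3 group, was 5.24-fold higher in Tomato- cells. Its lowest, median and highest title numbers were 0, 2.91 and 9.40 CPM in Tomato+ and 12.7, 16.7 and 38.996 CPM in Tomato- cells. These ranges did not overlap. Tomato+ cells together had 3.81 CPM [3.41 to 4.25] and Tomato- cells 19.97 CPM [19.1 to 20.9], a log2 ratio of -1.12 (SD 0.35). Etv5 was found in 3.98% [2.13 to 6.70] of the former cells and 12.2% [8.97 to 15.97] of the latter.

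Dusp6 encodes a phosphatase that removes phosphate from ERK. Its lowest, median and highest title numbers were 18.5, 22.5 and 35.5 CPM in Tomato+ and 20.9, 45.9 and 81.6 CPM in Tomato- cells. The lower Tomato- title numbers lay within the Tomato+ range. Tomato- cells together had 48.8 CPM [47.4 to 50.3], 1.94-fold more than the 25.1 CPM [24.1 to 26.2] of Tomato+ cells (log2 ratio -0.74, SD 0.40). The shares of cells with Dusp6 lay close together, at 20.8% [16.5 to 25.6] and 22.9% [18.7 to 27.6].

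The Sprouty genes, whose products block the step from the receptor to RAS, were low in both groups. Over title numbers, Spry1 was at 0 to 3.70 CPM in Tomato+ and at 0.103 to 16.6 CPM in Tomato- cells. Spry2 was at 0 to 11.1 CPM and at 0 to 19.1 CPM. The ranges of both genes overlapped between the groups. Summed levels were 0.649 CPM against 4.13 CPM for Spry1 (log2 ratio -0.41, SD 0.33) and 2.86 CPM against 6.31 CPM for Spry2 (log2 ratio -0.34, SD 0.42).

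**Figure D1:**
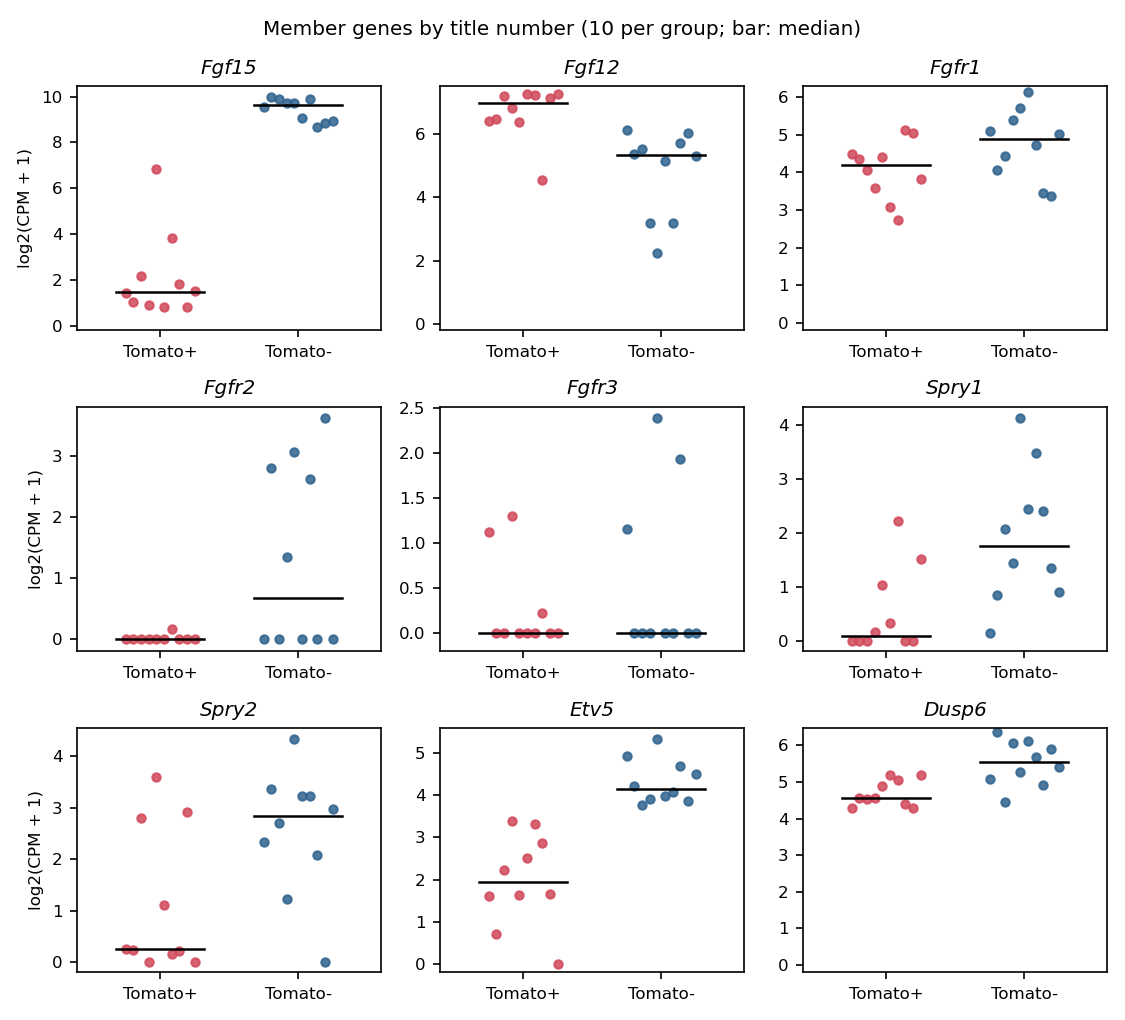
Level of each of the 9 genes, as log2(CPM + 1) on the vertical axis, in each of the 10 title numbers of Tomato+ (red) and Tomato- (blue) cells; each point is 1 title number and the bar is the median. The points of Fgf15 and Etv5 do not overlap between the groups, and 1 Tomato+ point of Fgf15, title number 5 at 113.8 CPM, stands above the others.

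These differences stood against those of all genes. Among 10459 genes with a count in at least 10% of the cells of either group, 6.44% had a log2 ratio of -1 or lower and 2.97% had 1 or higher. Of the 9 genes, 6 passed this filter, while Fgfr2, Fgfr3 and Spry1 did not. Fgf15 and Etv5 were at -1 or lower and Fgf12 was at 1 or higher. Title-number ranges did not overlap for 3.2% of genes lower in Tomato+ and 1.63% of genes higher in Tomato+ cells. Fgf15 and Etv5 belonged to the former, and 0 of the 9 genes to the latter. The median log2 ratio of all 10459 genes was -0.05.

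The mix of cells differed between the groups along with these genes. Summed over 12 progenitor markers, levels were 148.6 to 657 CPM over Tomato+ title numbers and 3111 to 5446 CPM over Tomato- ones, and 12 of 12 markers were lower in Tomato+ cells. Summed over 12 RGC markers they ran from 18597 to 22386 CPM and from 6804 to 12652 CPM, with 11 of 12 higher in Tomato+ cells. Neurogenic precursor markers, 12 of 12 lower in Tomato+ cells, lay between 81.03 and 317.3 CPM there and between 936.99 and 1861 CPM in Tomato- title numbers. Blood cell markers were uneven. The 7 erythroid markers summed to 1.70 to 9145 CPM over Tomato+ title numbers and to at most 14.1 CPM over Tomato- ones, with 5 higher in Tomato+ cells. The 8 microglia or macrophage markers summed to at most 85.4 CPM in Tomato+ and reached 1094 CPM in a Tomato- title number, with 8 of 8 lower in Tomato+ cells. The part of these cells in the levels of the 9 genes was not tested. The 9 genes were therefore also described by class of cell.

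Cells of both groups were clustered together with the 9 genes and the FGF pathway lists left out of the genes used. Of those lists only Ccnd1, also a progenitor marker, stayed available. Markers named 4 classes, each called like its cell type since no annotation of the authors was used. Of the kept Tomato+ cells all but 9 were RGC-like, and 98 Tomato- cells were. Progenitor-like cells, in clusters 4 and 5, were 3 Tomato+ and 71 + 54 Tomato- cells. Neurogenic precursor-like cells numbered 0 and 49, and photoreceptor precursor-like cells 2 and 9. The neurogenic precursor-like cluster was raised for all 12 progenitor markers as well as all 12 neurogenic precursor markers. Neurogenic markers among its leading genes, such as Neurog2 and Olig2, decided its name, and the mitotic genes Cenpe, Ube2c and Nusap1 led it too. Cluster 3, with 4 and 81 cells, stayed unnamed. It is led by Tfap2b, Prdm13 and Prox1, which are known from amacrine and horizontal cells, but its raised markers were mixed. They were 10 of RGCs, 6 of progenitors, 5 of amacrine or horizontal precursors, 4 of neurogenic precursors and 2 of photoreceptor precursors. Genes of the same program as the 9 genes took part in the clustering, so levels by class are descriptions.

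Fgf15 was graded over the Tomato- classes. It stood at 1989 CPM in progenitor-like cells, 202.96 CPM in neurogenic precursor-like cells, 200.1 CPM in cluster 3 and 20.6 CPM in RGC-like cells. The middle 2 of these did not differ beyond their spread, since their title numbers began at 8.29 and 7.76 CPM and had medians of 214.04 and 158.5 CPM. Progenitor-like title numbers ran from 1559 to 2848 CPM, above every title number of the other classes. RGC-like ones ran from 2.38 to 54.1 CPM. Progenitor-like cells held 89.9% of the Tomato- Fgf15 counts, and 94.4% [88.8 to 97.7] of them had the gene detected. The shares were 53.1% in neurogenic precursor-like cells, 35.8% in cluster 3 and 22.4% [14.6 to 31.99] in RGC-like cells.

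Progenitor-like over RGC-like, the log2 ratio of Fgf15 was 6.03 (SD 0.96) and lay above 0 in 10 of 10 title numbers. Progenitor-like over neurogenic precursor-like, it was 3.23 (SD 1.73), again above 0 in 10 of 10. The progenitor-like class was made of a cluster led by S phase genes such as Mcm5 and Cdt1 (cluster 4, 71 Tomato- cells) and a cluster led by mitotic genes such as Ccnb1 and Aspm (cluster 5, 54 Tomato- cells). Fgf15 was at 1737 CPM in the former and 2248 CPM in the latter. Title numbers ran from 763 to 3012 CPM and from 773 to 4377 CPM, a full overlap.

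RGC-like cells offered the same class in both groups. In Tomato+ RGC-like cells Fgf15 was at 2.83 CPM [2.49 to 3.22] and detected in 7 cells, or 2.20% [0.889 to 4.48]. In Tomato- RGC-like cells it was at 20.6 CPM [19.03 to 22.3] and detected in 22 of 98 cells. At 1 count or more the shares were 26.7% and 66.3%, at median totals of 271764 and 332800.5. Tomato+ title numbers ran from 0.780 to 13.2 CPM, and those of Tomato- from 2.38 to 54.1 CPM, so the ranges overlapped. The groups filled different clusters of this class, mostly clusters 0, 1 and 2 in Tomato+ (35.8%, 27.04% and 23.3% of its cells) and clusters 1, 0 and 8 in Tomato- (32, 27 and 21 cells). Fgf15 was at 2.91 against 17.3 CPM in cluster 0, where 1 cell held 69.2% of the Tomato+ and 1 cell 74.5% of the Tomato- counts. Without these cells the levels were 0.905 and 4.60 CPM. In cluster 1 they were 2.297 against 34.5 CPM, and without the highest cell of each group 1.45 against 27.2 CPM. In cluster 8 the 10 Tomato+ cells had 3 counts in all.

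Fgf12 ran the other way over the classes. In Tomato- cells it was at 94.6 CPM in RGC-like, 8.51 CPM in progenitor-like, 8.54 CPM in cluster 3 and 0.273 CPM in neurogenic precursor-like cells, the last resting on 3 counts. In cluster 3, 1 cell held 77.7% of the counts, and without it the level was 1.92 CPM. The progenitor-like level without its highest cell was 5.42 CPM. RGC-like over progenitor-like, its log2 ratio was 2.50 (SD 0.88) and above 0 in 10 of 10 title numbers. Within the RGC-like class, Tomato+ cells had 114.07 CPM [111.8 to 116.4] and Tomato- cells 94.6 CPM [91.2 to 98.1]. Title numbers ran from 22.6 to 171.2 CPM and from 13.9 to 258.7 CPM, so the ranges overlapped. Fgf12 was detected in 49.7% [44.1 to 55.3] of the Tomato+ and 32.7% [23.5 to 42.9] of the Tomato- RGC-like cells.

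RGC-like clusters differed in Fgf12. Clusters 0, 2 and 7 had 128.4, 120.4 and 119.4 CPM over both groups, cluster 1 had 70.7 CPM and cluster 8 had 28.6 CPM. Cluster 7 is led by Eomes and Opn4, genes of melanopsin ganglion cells, and cluster 8 by Igfbp5 and Thsd7b. In progenitor-like cells, Fgf12 reached 5 counts in 0 of 71 Tomato- cells of cluster 4, which allows a share of up to 4.23% at that threshold, while 12.7% of these cells had at least 1 count. It reached 5 counts in 5 of 54 cells of cluster 5. Those 5 cells had a median of 9 RGC markers detected and a median total of 510190 counts. The other 49 cells of the cluster had medians of 4 markers and 244838 counts. No doublets were called, and the part of cell pairs in these 5 cells was not tested.

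**Figure D2:**
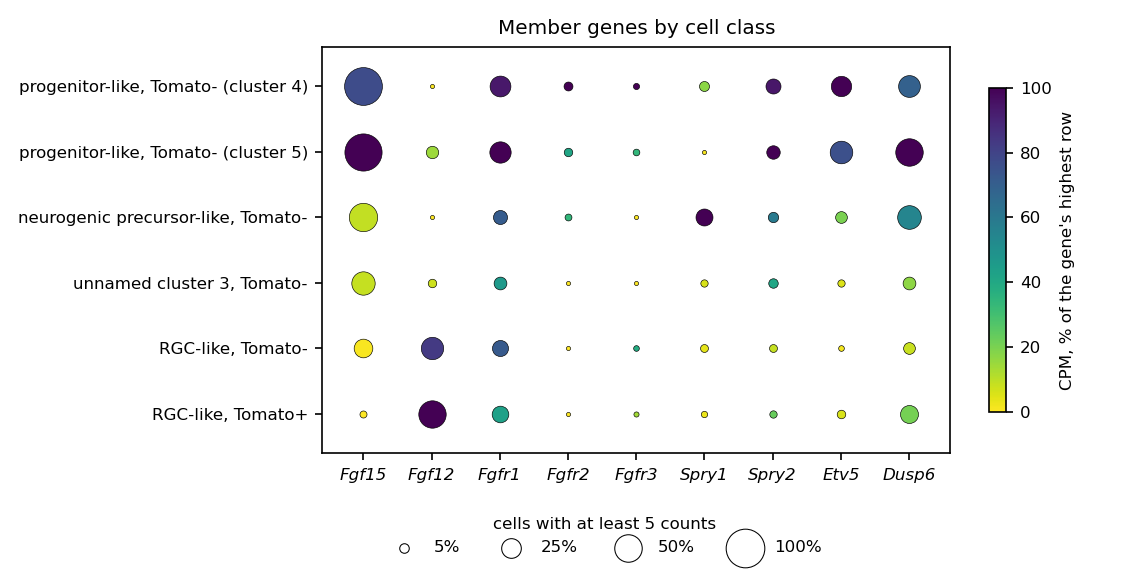
The 9 genes (columns) in the classes of cells (rows); the area of a circle gives the share of cells with at least 5 counts and its colour the CPM as a percentage of the highest row for that gene. Fgf15 is darkest and widest in both progenitor-like clusters, Fgf12 in RGC-like cells, and Spry1 in neurogenic precursor-like cells.

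Fgfr1 was found in each of these classes. It was at 39.4 CPM in progenitor-like, 29.1 CPM in neurogenic precursor-like, 29.4 CPM in RGC-like and 18.8 CPM in cluster 3 Tomato- cells. Progenitor-like over RGC-like, the log2 ratio was 0.33, within the SD of 1.34, and 7 of 10 title numbers were above 0. Detection was 28.8% in progenitor-like and 16.3% in RGC-like cells, and 1 cell held 45.1% of the RGC-like, 64.5% of the cluster 3 and 34.4% of the neurogenic precursor-like counts. Without the highest cell of each class, levels were 34.9 CPM in progenitor-like, 19.5 CPM in neurogenic precursor-like, 16.4 CPM in RGC-like and 6.79 CPM in cluster 3 cells. A spread between title numbers was computed only for progenitor-like over RGC-like cells, so neighbours in this order are not told apart. Of the 6 Tomato- cells with Fgfr2, 5 were progenitor-like and 1 was neurogenic precursor-like. Fgfr2 had 0 counts in the 98 RGC-like and 81 cluster 3 Tomato- cells, which allows up to 0.0964 and 0.154 CPM.

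Etv5, like Fgf15, was highest in progenitor-like cells. It was at 53.8 CPM in progenitor-like, 12.4 CPM in neurogenic precursor-like, 3.24 CPM in cluster 3 and 0.964 CPM in RGC-like Tomato- cells. Below the progenitor-like class these levels rested on single cells, which held 52.2%, 63.5% and 80% of the counts. Without the highest cell of each class they were 50.7 CPM in progenitor-like, 6.06 CPM in neurogenic precursor-like, 1.205 CPM in cluster 3 and 0.195 CPM in RGC-like cells. Progenitor-like title numbers ran from 19.4 to 127.2 CPM and RGC-like ones from 0 to 5.26 CPM, without overlap. The log2 ratio, progenitor-like over RGC-like, was 2.54 (SD 0.78) and above 0 in 10 of 10 title numbers. Against neurogenic precursor-like cells it was 1.51 (SD 1.45), above 0 in 9 of 10.

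Dusp6 was shared by both kinds of precursor. It was at 102.5 CPM in progenitor-like and 66.3 CPM in neurogenic precursor-like cells, with 39.2% and 36.7% of cells positive. The log2 ratio between them, 0.56, was within the SD of 0.89. Cluster 3 had 20.4 CPM and RGC-like Tomato- cells had 10.3 CPM. Progenitor-like over RGC-like, the log2 ratio was 2.47 (SD 1.15), above 0 in 10 of 10 title numbers.

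Within the RGC-like class, Dusp6, Etv5 and Spry2 had the opposite order to that over all cells. For Dusp6, Tomato+ RGC-like cells had 25.3 CPM [24.2 to 26.4] and Tomato- ones 10.3 CPM [9.22 to 11.5]. It was detected in 20.8% [16.4 to 25.6] of the former and 8.16% [3.59 to 15.45] of the latter. Tomato+ title numbers lay between 18.5 and 39.9 CPM, and Tomato- ones between 0 and 47.6 CPM, so the Tomato+ range lay inside the wider Tomato- range. By cluster, Dusp6 was higher in Tomato+ in clusters 0, 1 and 2, at 16.7 against 5.25, 54.5 against 10.6 and 29.8 against 11.1 CPM. Single cells held 64.5%, 77.4% and all of these Tomato- counts. Without the highest cell of each group the levels were 14.9 against 1.92, 48.2 against 2.48 and 26.9 against 0 CPM. Clusters 7 and 8 had 13.7 against 27.5 and 11.1 against 13.1 CPM, where 1 cell held all of the Tomato- counts of cluster 7 and 96.6% of the Tomato+ counts of cluster 8. For Etv5 the RGC-like levels were 3.67 (Tomato+) against 0.964 CPM (Tomato-), and for Spry2 2.93 against 1.12 CPM. Both genes were low, and their title-number ranges started at 0 in each group, so they overlapped. Leaving out the highest cell of each group gave 3.09 against 0.195 and 2.12 against 0.555 CPM. Detection was 3.77% against 1.02% for Etv5 and 2.52% against 3.06% for Spry2. Spry1 kept the order of all cells, at 0.667 against 0.932 CPM.

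Spry1 had its highest level outside the progenitor-like class. Neurogenic precursor-like cells had 23.7 CPM, with 18.4% [8.76 to 32.02] of cells positive, and progenitor-like cells had 2.20 CPM, with 3.2% positive. The log2 ratio, neurogenic precursor-like over progenitor-like, was 1.46, close to the SD of 1.44, and it was above 0 in 6 of 10 title numbers. Of the progenitor-like Tomato- counts, 64 were in cluster 4 and 3 in cluster 5, and without 1 cell that level was 1.16 CPM. Spry2 was at 12.3 CPM in progenitor-like, 7.46 CPM in neurogenic precursor-like, 5.15 CPM in cluster 3 and 1.12 CPM in RGC-like Tomato- cells. Without the highest cell of each class these were 10.8, 4.29, 3.31 and 0.555 CPM. Progenitor-like over RGC-like, its log2 ratio was 1.00 (SD 0.73), above 0 in 8 of 10 title numbers.

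The sequences upstream of the 4 feedback and target genes are shown because these genes are the readouts of the pathway here. Each window is the 250 bases before the start of the RefSeq transcript on build GRCm38.p6, read 5′ to 3′ on the gene's strand, with the GC box GGGCGG (on either strand) in capitals. The windows are chr10:99262981-99263230 (plus strand) for Dusp6, chr16:22439571-22439820 (minus strand) for the first of 2 Etv5 entries, chr3:37639697-37639946 (plus strand) for Spry1 and chr14:105896820-105897069 (minus strand) for Spry2.
Dusp6: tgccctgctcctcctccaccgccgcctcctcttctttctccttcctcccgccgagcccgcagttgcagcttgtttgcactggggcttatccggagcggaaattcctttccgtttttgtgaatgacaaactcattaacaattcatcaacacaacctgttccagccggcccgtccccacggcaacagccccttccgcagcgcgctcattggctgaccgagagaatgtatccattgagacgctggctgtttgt
Etv5: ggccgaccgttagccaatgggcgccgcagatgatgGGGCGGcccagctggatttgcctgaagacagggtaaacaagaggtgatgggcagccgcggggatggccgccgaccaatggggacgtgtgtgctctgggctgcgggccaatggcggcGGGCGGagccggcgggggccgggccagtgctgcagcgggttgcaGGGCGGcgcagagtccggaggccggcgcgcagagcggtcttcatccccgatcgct
Spry1: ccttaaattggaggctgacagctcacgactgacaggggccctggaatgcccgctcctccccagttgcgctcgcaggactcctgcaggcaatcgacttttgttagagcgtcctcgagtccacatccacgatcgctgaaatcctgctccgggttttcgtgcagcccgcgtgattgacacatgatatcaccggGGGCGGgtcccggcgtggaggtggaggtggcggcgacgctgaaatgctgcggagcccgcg
Spry2: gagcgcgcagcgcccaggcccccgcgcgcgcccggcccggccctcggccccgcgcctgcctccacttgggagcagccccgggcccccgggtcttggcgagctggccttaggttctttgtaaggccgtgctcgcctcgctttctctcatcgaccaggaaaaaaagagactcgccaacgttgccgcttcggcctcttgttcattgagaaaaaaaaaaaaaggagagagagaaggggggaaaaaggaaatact
The Etv5 window holds 3 GC boxes, the Spry1 window 1, and the Dusp6 and Spry2 windows 0. The box is in 32.7% of 32851 promoter windows of this length. CCGGAA, an ETS site longer than the core GGAA (not counted), was searched on both strands. It is in 12.0% of those windows and in 0 of these 4. TATAAA, in 12.4% of all windows, is also in 0 of these 4, which says only that these letters are not in these stretches.

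Fgf15 lies at chr7:144896532-144900953 on the plus strand (RefSeq, GRCm38.p6), with Fgf4 and Fgf3 upstream and LTO1 (listed in the count table under its older symbol Oraov1) and the cyclin D1 gene Ccnd1 downstream. Fgf3 ends 53.2 kb before Fgf15, and the 3′ end of Ccnd1, which lies on the minus strand, is 28.98 kb behind it. Fgf3, Oraov1 and Ccnd1 were also highest in progenitor-like Tomato- cells. Fgf3, another secreted FGF, was at 134.1 CPM there, 8.55 CPM in neurogenic precursor-like, 7.87 CPM in cluster 3 and 3.24 CPM in RGC-like cells. Single cells held 87.2%, 60.1% and 50.5% of the counts of the last 3 classes, and without them the levels were 1.12, 3.24 and 1.63 CPM. Oraov1 was at 41.9 CPM in progenitor-like, 18.4 CPM in neurogenic precursor-like, 23.2 CPM in cluster 3 and 29.7 CPM in RGC-like cells. The neurogenic precursor-like level was 9.24 CPM without 1 cell. Ccnd1, which drives entry into S phase, was at 2302, 989.8, 337.6 and 52.6 CPM in the same classes. As a progenitor marker, Ccnd1 helped to name the class and could enter the clustering, so its order is no separate observation. Fgf4 had 0 counts in both groups. An antisense gene, Gm26793, overlaps Fgf15, and Gm16159 overlaps Fgfr1, and whether reads were counted by strand is not given in the sources used here.

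Ligand, receptor and target were then asked for in the same Tomato- cell. A receptor means any of the 3 receptor genes and a target any of Spry1, Spry2, Etv5 and Dusp6, each detected at 5 counts or more. Of the kept Tomato- cells, 54.1% had Fgf15, 20.2% [16.2 to 24.7] a receptor and 35.4% [30.4 to 40.5] a target. Fgf15 with a receptor was found in 53 cells, Fgf15 with a target in 92, and a receptor with a target in 29. All 3 were found together in 25 cells, or 6.91% [4.52 to 10.03], and 31.5% [26.7 to 36.6] of cells had none of them. Fgf15 without a receptor or target was found in 76 cells. Cells with all 3 were deep, with a median total of 308792 counts. Detection in pairs depends on depth and on how often a transcript is caught, so a cell without a count may still express the gene.

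Cells with Fgf15 had a receptor more often than cells without it, in 27.04% [20.96 to 33.8] against 12.05% [7.52 to 17.99]. They had a target in 46.9% [39.8 to 54.2] against 21.7% [15.7 to 28.7]. The order was the same in 9 of 10 title numbers for receptors and in 10 of 10 for targets. Median totals were lower in the cells with Fgf15, at 237829 against 260269.5 counts. At equal depth, with each cell thinned to 94783 counts and 36 shallower Tomato- cells left out, targets at 5 counts were in 47.1% against 17.8% of cells. Receptors were then in 17.8% [12.2 to 24.7] against 11.2% [6.91 to 16.999], a difference of 6.59 percentage points [-1.47 to 14.74] where it was 14.99 [6.49 to 23.2] unthinned. The interval for receptors at equal depth thus includes 0. At 1 count the difference for receptors was 8.86 points [-4.40 to 20.3] unthinned, while after thinning the shares were 32.4% against 14.4%. Targets at 1 count after thinning were in 54.5% against 25.96%.

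Shares were also higher at more Fgf15 in the cell. Cells were binned at 0 counts of Fgf15, 1 to 4, 5 to 49, and from 50, from 200 and from 500 counts. A receptor was found in 11.9%, 12.1%, 14.8%, 20%, 31.2% and 44.7% of the cells in these bins. A target was found in 25.4%, 19.2%, 27.9%, 42.5%, 64.6% and 57.4%. The number of progenitor-like cells in these bins was also higher at more Fgf15, at 0, 7, 10, 24, 39 and 45. Bins were cut on counts as deposited, so depth enters them. Their median totals were 228098, 271169, 218802, 211527.5, 234940.5 and 280785 counts, highest in the last bin.

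The differences were smaller outside the progenitor-like class. There a target was in 26.9% [17.5 to 38.2] of 78 cells with Fgf15 and 20.1% [14.2 to 27.2] of the cells without it. A receptor was in 16.7% and 12.6% of the same cells. Fgf15, a receptor and a target were found together in 4 of these cells, or 1.69% [0.462 to 4.26], and in 21 progenitor-like cells, or 16.8% [10.7 to 24.5]. Inside the progenitor-like class, all but 7 cells had Fgf15. A target was in 60.2% of the cells with it and in 4 of those 7, a number too small for a comparison.

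**Figure D3:**
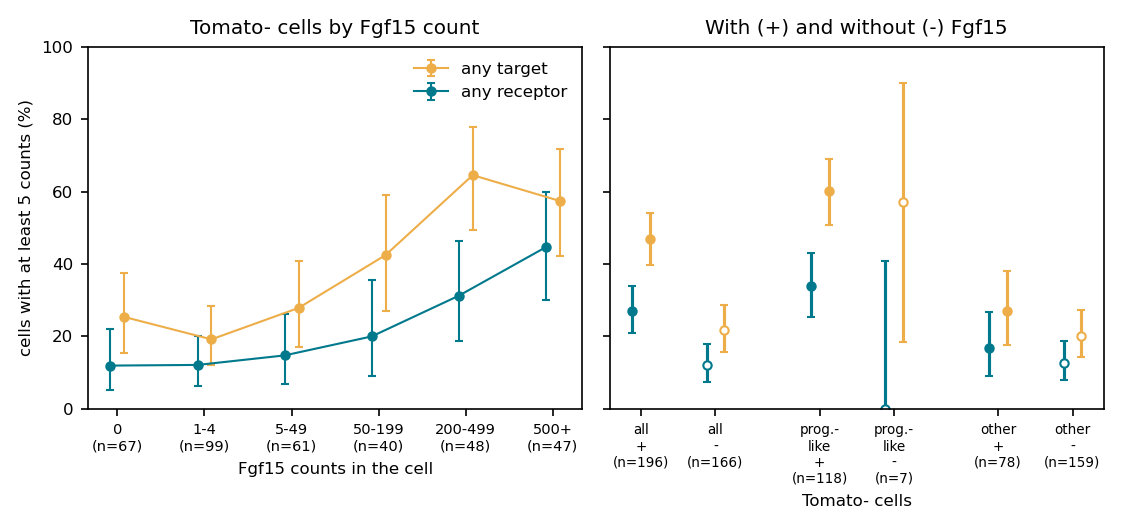
Share of Tomato- cells (vertical axis, percent) with at least 5 counts of any target (orange) or any receptor (teal), with exact 95% intervals; left, by Fgf15 count in the cell, and right, with Fgf15 (filled) and without it (open) in all, progenitor-like and other Tomato- cells. Both shares are higher at high Fgf15 counts on the left, and outside the progenitor-like class on the right the intervals with and without Fgf15 overlap.

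Progenitor-like cells with a receptor did not have a target more often than those without. Of 40 progenitor-like cells with a receptor, 52.5% [36.1 to 68.5] had a target, against 63.5% [52.4 to 73.7] of 85 cells without a receptor. Dusp6 was in 22.5% [10.8 to 38.5] of the former and 47.1% [36.1 to 58.2] of the latter. Etv5 was in 14 of 40 and 23 of 85 cells, and Spry2 in 2 of 40 and 14 of 85. The intervals of Dusp6 overlapped at their ends, and those of any target widely. Overlap of separate intervals does not decide whether shares differ, and no interval was computed for these differences.

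By single genes, 38 of the 44 Tomato- cells with Etv5 (86.4%) also had Fgf15, as did 59 of 83 with Dusp6 (71.1%), 48 of 67 with Fgfr1 (71.6%), 18 of 26 with Spry2 (69.2%), 13 of 18 with Spry1 (72.2%) and 6 of 6 with Fgfr2. Over all Tomato- cells the share with Fgf15 was 54.1%. Of the 40 cells with Fgf12, 10 had Fgf15. Etv5 and Dusp6 shared 19 cells, which is 43.2% of those with Etv5 and 22.9% of those with Dusp6. Of the 4 targets, 87 Tomato- cells had 1, 39 had 2, 2 had 3 and 0 had all 4.

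Across the kept Tomato- cells (400 less 38), the genes whose log2(CPM + 10) was most like that of Fgf15 were Hes1 (Pearson r 0.74), Ccnd1 (0.72), Zfp36l1 (0.68), Id3 (0.63) and Plagl1 (0.63), out of 9493 genes. Hes1 is a Notch target that keeps progenitors undifferentiated, and Id3 blocks basic helix-loop-helix factors. The cells share a library preparation, and class and depth enter these values. Within the progenitor-like cells (71 + 54) r was 0.35 for Hes1, 0.56 for Ccnd1, 0.18 for Zfp36l1, 0.39 for Id3 and 0.39 for Plagl1. Etv5 (0.32) ranked 89 among the genes like Fgf15 and Dusp6 (0.26) lower, and within progenitor-like cells their r was 0.05 and 0.01. In sparse counts such weak values are no finding.

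Fgf12 was most like Sncg (0.49), Syt4 (0.48), S100a10 (0.46), Rbpms (0.46) and Stmn3 (0.45), of which Sncg and Rbpms are RGC markers and Syt4 and Stmn3 are neuronal genes. Dusp6 was most like Hist1h2an (0.36), Ccnd1 (0.34), Tipin (0.34), Nuf2 (0.33) and Neil3 (0.32), genes of DNA replication, repair and mitosis apart from Ccnd1. Within progenitor-like cells their r with Dusp6 was 0.33, 0.14, 0.32, 0.24 and 0.17. These values are weak too, and no theme is drawn from them.

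**Figure D4:**
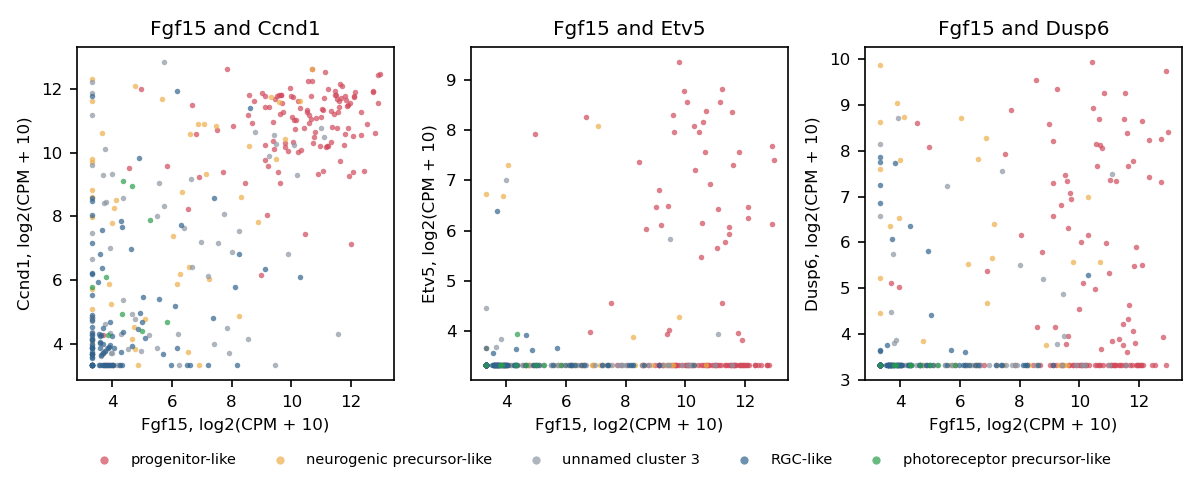
Each point is 1 kept Tomato- cell, with Fgf15 on the horizontal axis and Ccnd1 (left), Etv5 (middle) or Dusp6 (right) on the vertical axis, all as log2(CPM + 10), coloured by class. Progenitor-like cells gather at high Fgf15 and high Ccnd1, which is a marker used to name the class. Etv5 and Dusp6 are at the floor in many cells with high Fgf15.

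The rest of the pathway was described from lists, with log2 ratios as Tomato+ over Tomato- and genes counted where they passed the 10% filter. Of all 10459 genes that did, 44.4% lay above 0. Of 18 secreted FGFs, 3 passed, with 0 above 0 and a median of -2.27. Beside Fgf15 these were Fgf3, at 1.91 against 47.4 CPM (-2.27), and Fgf9, which acts in the early eye, at 44.4 against 91.3 CPM (-0.90). Another 7 secreted FGFs had 0 counts. Fgf9 was in several classes of Tomato- cells, at 162.5 CPM in progenitor-like, 74.4 CPM in neurogenic precursor-like, 63.8 CPM in cluster 3 and 44.9 CPM in RGC-like cells.

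Fgfr4 and the coreceptor gene Klb, through which Fgf15 is known to act on the liver, had few counts, with 0 and 8 in Tomato+ and 4 and 5 in Tomato- cells. Of 20 coreceptor and heparan sulphate genes, 12 passed the filter, 4 above and 8 below 0 (median -0.40). The syndecan gene Sdc2 (5.46 against 28.4 CPM, -1.31) and Sulf2, which trims heparan sulphate (32.3 against 79.7 CPM, -1.08), were lowest. The 18 genes of the adaptors and the ERK cascade that passed were divided evenly, 10 above and 8 below 0 (median 0.09).

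Of 9 feedback inhibitors that passed, 4 were above and 5 below 0 (median -0.18), with Dusp6 lowest and Dusp4, another ERK phosphatase, highest (29.6 against 15.7 CPM, 0.63). All 7 transcriptional targets that passed were below 0 (median -1.52). These included Ccnd1 (24.3 against 957 CPM, -4.82) and the immediate early genes Fos (20.7 against 168.6 CPM, -2.54) and Egr1 (25.7 against 100.3 CPM, -1.63). They also included Etv1, a relative of Etv5, at 2.21 against 25.04 CPM (-1.52). Several of these genes are known to respond to other signals as well as FGF.

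The 4 FGF homologous factors all lay above 0 (median 0.26), but Fgf13, Fgf14 and Fgf11 were within their SD, at 0.34, 0.17 and 0.14. The sodium channel genes whose products such factors bind had 6 of 6 above 0 (median 1.03), led by Scn3a (257.5 against 111.3 CPM, 1.14), Scn2a (83.8 against 33.4 CPM, 1.11) and Scn3b (181.3 against 79.3 CPM, 1.10). Cell cycle lists ran with Fgf15, with 14 of 14 M phase genes (median -3.76) and 15 of 15 S phase genes (median -1.88) below 0. These lists were chosen with earlier results known, and their medians stand beside -0.05 for all genes.

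**Figure D5:**
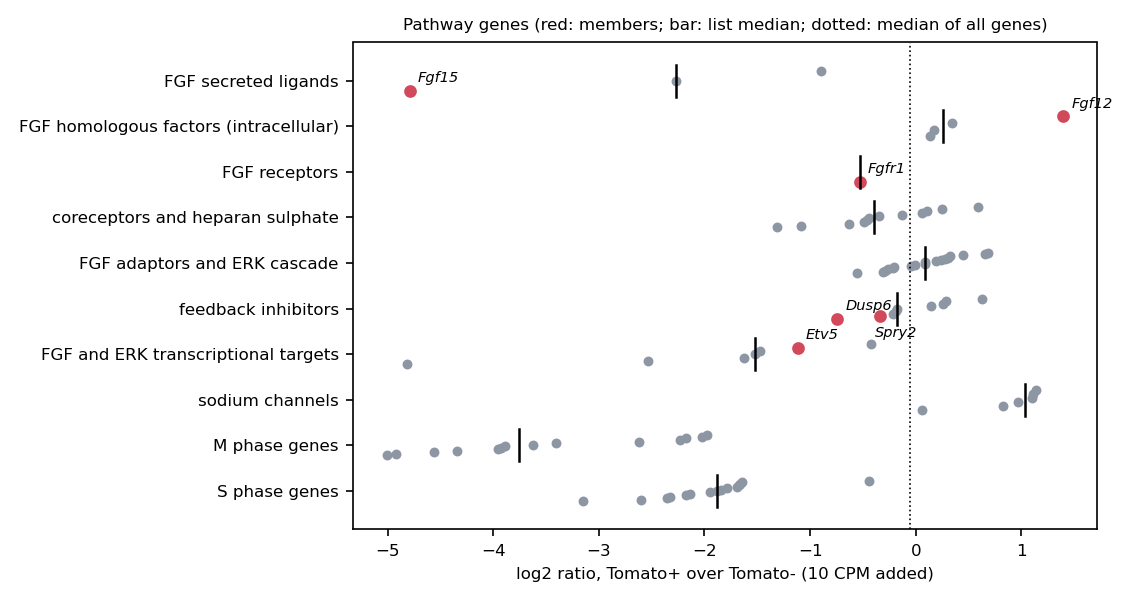
Log2 ratio of Tomato+ over Tomato- (horizontal axis, 10 CPM added) for the genes of each list (rows) that passed the 10% filter; red points are among the 9 genes, bars are list medians, and the dotted line is the median of all 10459 genes at -0.05. Secreted ligands and transcriptional targets lie left of the line, sodium channel genes and FGF homologous factors right of it.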

How the data were processed

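Single-cell libraries of 800 cells were labelled Tomato+ (400) or Tomato-. The authors deposited 1 table of counts, whole numbers per gene and cell with no normalization. Per the file headers the columns end in "umi", while the labels name SmartSeq2 and the series title C1, so whether counts are molecules or reads is not settled. Levels are therefore not compared between genes. Seurat 2.3, R 3.4.4 and mm10 are named per the submitters' processing notes. The aligner and counting tool are not given in the sources used here. There was 1 column that matched no labelled cell, and it was not used. No 2 cell columns were identical.

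Kept cells had 1000 genes or more and no more than 20% mitochondrial counts, which left out 73 Tomato+ and 38 Tomato- cells. Counts were summed and scaled to CPM (Python 3.11.15, numpy 2.4.6, scipy 1.17.1). Thinning drew each cell to 94783 counts, which left out 33 Tomato+ and 36 Tomato- cells. Intervals of differences between shares combine both shares' exact limits in quadrature. The calculations were tested on simulated data. Clusters came from scanpy 1.11.5 (2000 variable genes, 20 components, 15 neighbours, Leiden resolution 1). Clusters were named for the class most of whose markers were raised 2-fold and found in 20% of cells, with 3 markers as the minimum. Ties went to the class with more markers among the leading genes. A name was withdrawn where leading genes belonged to another class, a rule set after clusters had been seen. Doublets were not called. TMM (edgeR 4.0.16) and median-of-ratios (DESeq2 1.42.0) factors served as other scalings, and no count model was run. Promoters came from RefSeq windows on GRCm38.p6, where 7 of the 9 genes had an entry.

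Genes named beside the 9 are, per list, up to 4 with the largest absolute log2 ratio among those passing the 10% filter, and the 5 with the highest r. Fgfr4, Klb, Fgf11, Fgf14 and the neighbours of Fgf15 were added after their values were seen. Members and lists were chosen with earlier results of these data known.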

Additional observations from a re-analysis of the deposited data

Results flagged for a closer look

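In 18 sets of 10 title numbers (9 genes in each group), 4 had a highest value whose gap to the next exceeded Dixon's 95% limit. This limit is made for normal values, while these CPM are skewed and hold zeros, so the number flagged cannot be set against chance. A set with 1 value above 0 is always flagged. Fgf15 was at 113.8 CPM in Tomato+ title number 5, and the next Tomato+ value was 13.2 CPM. Fgfr2 was at 0.119 CPM in Tomato+ title number 7, which is 1 count, and at 0 in the other 9. Spry1 was at 3.70 CPM in Tomato+ title number 7, from 31 counts, with the next at 1.87 CPM. Spry2 was at 19.1 CPM in Tomato- title number 15, with the next at 9.33 CPM.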

How the results depend on the processing

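Over 45 results, 735 alternative values were computed. Of these, 696 stayed near the reported value, 39 moved and 0 changed direction. Staying meant within the spread or interval of the reported value or, for shares of all genes, within a factor of 1.5. A change of direction was counted only for log2 ratios of at least 1 in size and for differences between shares. Most of these values left out 1 title number, so they share most cells with the reported value. Another 10 class ratios had no value, since no neurogenic precursor-like class was found at resolution 0.5 or with classes from marker counts. Leaving out each title number in turn moved 1 of 290 log2 ratios by more than its spread, that of Fgf15 without title number 5 (range -5.82 to -4.67). Without the progenitor-like Tomato+ cells, an alternative chosen after seeing the data, it was -5.83. A pseudocount of 1 CPM gave -2.12 for Etv5, and 11.3% and 6.81% of genes at -1 or lower and 1 or higher. With all genes that had a count, those shares were 3.19% and 1.36%, and ranges did not overlap for 1.46% (lower in Tomato+) and 0.724% (higher). The Tomato- share with Fgf15 was 81.5% at 1 count, 47.5% at 10 counts and 48.2% after thinning, and the Tomato+ share 26.9% at 1 count. For Fgf12 the shares at 1 count were 60.2% (Tomato+) and 25.1% (Tomato-). Cells with Fgf15, a receptor and a target made up 17.1% of Tomato- cells at 1 count, 4.29% after thinning and 1.69% without progenitor-like cells. Without those cells, chosen after seeing the data, the difference between cells with and without Fgf15 was 6.797 percentage points for targets (25.3 with them) and 4.09 for receptors (14.99 with them). The intervals of these differences without progenitor-like cells, [-4.99 to 19.5] for targets and [-5.62 to 15.3] for receptors, both include 0. With those cells kept in, the difference for receptors was 6.59 after thinning and 8.86 at 1 count. Without the 1 cell with the most counts, also chosen after seeing the data, 17 of 32 Tomato- class levels of the 9 genes moved by over 1.5 times, 4 of them in the progenitor-like class. The log2 ratio of Fgf15, progenitor-like over RGC-like, was 4.48 with 10 components and 4.63 with classes from marker counts. The TMM and median-of-ratios factors, Tomato+ over Tomato-, were -0.12 and -0.14 on the log2 scale. Dividing by them raised Tomato+ levels, moved low genes less because of the added CPM, and turned no direction among the 9 genes. Fgfr2, Fgfr3 and Spry1 were limited by depth, with few cells at 5 counts or more.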
